A study of Homo sapiens with 2 samples.

Results

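The microRNAs described here are the inflammation-linked miR-146a, miR-146b, miR-155, miR-142 and miR-147b, as 9 mature arms of the 2656 mature microRNAs in the deposited count table. They were picked by name, both arms where listed, from microRNAs tied to NF-kappaB and to immune cells. The ratios of both miR-146 5p arms, both miR-142 arms and hsa-miR-147b-3p in this same contrast were known when the set was drawn up, so all values below are a description and none of them is tested. All 9 names were found, each with a single precursor.

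The cells were MDA-MB-231, a widely used established line from a human breast carcinoma that lacks hormone receptors and HER2 amplification. Both libraries came from cells transduced with an shRNA, directed at ELOVL5 in shELOVL5 and named shLuc in the control. ELOVL5 is an elongase of polyunsaturated fatty acids, and its own level was not analysed here because the table holds microRNAs only. The time after transduction is not given in the sources used here, nor is it said whether the cells were a clone or a pool. Each condition had 1 library, and microRNA counts came to 6811811 for shELOVL5 and 7109272 for shLuc. No difference can therefore be set against the spread between cultures. The 95% intervals cover counting error only, and PCR copies without molecular identifiers are not independent molecules. The bulk counts cannot tell more cells with a microRNA from more of it per cell. hsa-miR-221-3p and hsa-miR-222-3p, known to be high in basal-like breast cancer lines, stood at 38183 and 35916 counts per 1000000 (CPM, scaled with TMM factors) in shELOVL5.

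A mature microRNA guides Argonaute to messenger RNAs through its seed, bases 2 to 8. miR-146a and miR-155 are induced by NF-kappaB downstream of toll-like receptors and cytokine receptors. miR-146a and miR-146b then repress the adaptors IRAK1 and TRAF6 and so damp the pathway, whereas miR-155 represses SOCS1 and SHIP1 and sustains the response. miR-142 is restricted to blood cells in normal tissue. miR-147b is encoded within C15orf48, a gene induced by inflammatory stimuli whose protein replaces a subunit of mitochondrial complex IV. MDA-MB-231 cells are known for constitutive NF-kappaB activity.

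The sequences of the arms on which the values turn show which of them could be confused in counting and which share targets. They are RefSeq sequences (GRCh38.p14), 5′ to 3′, with the seed in capitals. All 9 members had a RefSeq entry.
hsa-miR-146a-5p: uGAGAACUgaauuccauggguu
hsa-miR-146b-5p: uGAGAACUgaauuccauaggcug
hsa-miR-155-5p: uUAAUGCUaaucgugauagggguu
hsa-miR-142-5p: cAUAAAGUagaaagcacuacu
hsa-miR-142-3p: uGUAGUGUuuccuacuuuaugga
hsa-miR-147b-3p: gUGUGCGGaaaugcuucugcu
The 9 members carry 8 distinct seeds, and the only seed held by more than 1 of them is GAGAACU of the miR-146 5p arms. Counting from 1 at the 5′ end, hsa-miR-146a-5p and hsa-miR-146b-5p are alike over the first 17 bases and differ by G18A and U21C among the 22 positions they share. Reads cut short at the 3′ end could thus fit either, and how the authors' counting treated such reads is not stated in the sources used here. Some like-named microRNAs had near-equal counts. hsa-miR-1268a and hsa-miR-1268b, identical over their first 18 bases, had 415 and 418 counts in shELOVL5 and 228 and 236 in shLuc. hsa-miR-518e-5p, hsa-miR-519b-5p, hsa-miR-519c-5p, hsa-miR-522-5p and hsa-miR-523-5p each had 27 counts in shELOVL5 and 16 in shLuc. They were named after their values were seen. A read that fits more than 1 name may thus have been counted under each. Shares over all microRNAs may then hold the same reads under several names. hsa-miR-147b-3p differs from hsa-miR-147a, added here for its like sequence, by C6U, within the seed. hsa-miR-147a had 0 counts in shELOVL5 and 1 in shLuc. Outside the set, hsa-miR-7153-5p carries the miR-146 seed and hsa-miR-5590-3p that of hsa-miR-142-5p, and both had 0 counts in both libraries.

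The 5 hairpins lie on 5 chromosomes, so no pair of them shares a primary transcript. On GRCh38 (GENCODE release 29), MIR146A is at chr5:160485352-160485450 in an exon of the noncoding gene MIR3142HG. MIR146B, at chr10:102436512-102436584, overlaps no other annotated gene. MIR155 is at chr21:25573980-25574044, in an exon of the noncoding gene MIR155HG. MIR142 is at chr17:58331232-58331318 on the minus strand, in an exon of the noncoding gene AC004687.1 and opposite an intron of TSPOAP1-AS1. MIR147B, at chr15:45433050-45433129, is in an exon of C15orf48 annotated as untranslated and opposite an intron of AC025580.1. The 1 other annotated microRNA hairpin within 10 kb of any of them was MIR4736, 4658 bases from MIR142, and hsa-miR-4736 had 0 counts in both libraries.

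The miR-146 pair, the inhibitors of the pathway, made up nearly all of the set. Together the 9 members took 29145 counts in shELOVL5 and 16203 in shLuc, or 0.428% and 0.228% of the libraries. hsa-miR-146a-5p gave 90.0% of these counts in shELOVL5 and 89.7% in shLuc. It had 26231 counts in shELOVL5 and 14528 in shLuc, a level of 3803 CPM (Poisson 95% interval 3757 to 3849) against 2069 (2036 to 2103). By level it ranked 38th in shELOVL5 and 50th in shLuc. The ratio of the scaled levels, shELOVL5 over shLuc, was 1.84 (1.80 to 1.88). The intervals of the levels are far apart, so counting error does not span the difference between these libraries.

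hsa-miR-146b-5p, with the same seed from another chromosome, was also higher in shELOVL5. It had 2581 counts in shELOVL5 and 1572 in shLuc, a level of 374 CPM (360 to 389) against 224 (213 to 235) and a ratio of 1.67 (1.57 to 1.78). The ratio of hsa-miR-146b-5p was 0.909 times that of hsa-miR-146a-5p (exact conditional interval 0.851 to 0.972). Accordingly, hsa-miR-146b-5p supplied 8.96% (exact binomial interval 8.63 to 9.29%) of the counts with this seed in shELOVL5 and 9.76% (9.31 to 10.2%) in shLuc. Summed, the 5p arms gave 4177 CPM in shELOVL5 and 2293 in shLuc, a ratio of 1.82 (1.79 to 1.86). This value does not depend on how reads were split between them only if each read was counted once. The near-equal counts of the miR-1268 pair put that in doubt. Some hsa-miR-146b-5p counts may then be hsa-miR-146a-5p reads, so the ratios and shares of these arms are not shown to be separate.

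The 3p arms of these hairpins, whose sequences differ from each other, were rare. hsa-miR-146b-3p had 53 counts (7.68 CPM) in shELOVL5 and 27 (3.85 CPM) in shLuc, and a ratio of 2.00 (1.23 to 3.30), which lies just under a 2-fold difference before rounding. hsa-miR-146a-3p had 6 and 2 counts, a ratio of 3.05 with an interval from 0.546 to 30.9 that includes 1. The 3p arm of miR-146b thus points the same way as its 5p arm, while that of miR-146a was too rare to read.

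**Figure D1:**
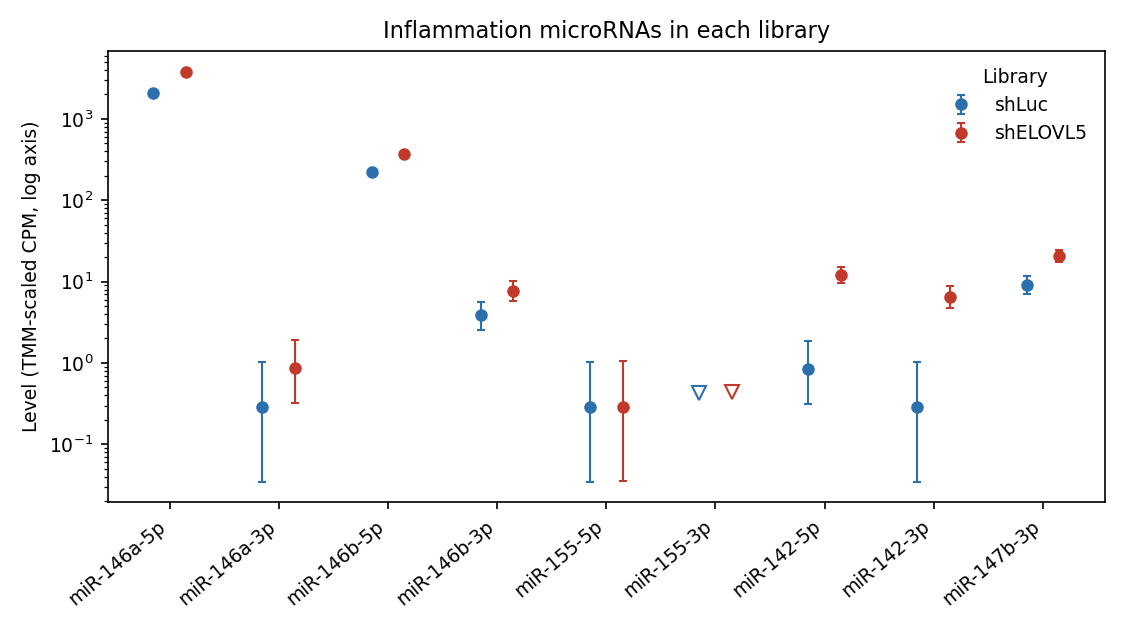
Level of each of the 9 members (TMM-scaled CPM, log axis) in the shLuc library (blue) and the shELOVL5 library (red), 1 library each, with Poisson 95% intervals that cover counting error only; open triangles mark the limit of 3 counts for hsa-miR-155-3p, at 0 counts in both. hsa-miR-146a-5p stands at 2069 and 3803 CPM, and the miR-142 arms stand near or below 1 CPM in shLuc and at 6.52 and 12.2 CPM in shELOVL5.

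miR-155, the member that sustains inflammatory signalling, was close to absent in both libraries. hsa-miR-155-5p had 2 counts in shELOVL5 and 2 in shLuc, 0.290 and 0.285 CPM. The ratio of 1.02 has an interval from 0.0738 to 14.0, so a lower level in shELOVL5 was not detectable at this depth, and a higher one is bounded only by that upper limit. hsa-miR-155-3p had 0 counts in each library, which leaves room for 3 counts (the one-sided 95% limit for a count of 0), equal to 0.435 CPM (shELOVL5) and 0.427 CPM (shLuc). In the control library hsa-miR-146a-5p had 14528 counts beside the 2 of hsa-miR-155-5p.

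miR-142, the blood cell microRNA, had the highest ratios of the set, from very low control counts. hsa-miR-142-5p had 84 counts in shELOVL5 and 6 in shLuc, a level of 12.2 CPM (9.71 to 15.1) against 0.855 (0.314 to 1.86) and a ratio of 14.3 (6.28 to 39.9). hsa-miR-142-3p had 45 counts in shELOVL5 and 2 in shLuc, 6.52 CPM (4.76 to 8.73) against 0.285 (0.0345 to 1.03), a ratio of 22.9 (5.98 to 195). Both arms of the hairpin were thus higher in shELOVL5, and the size of both ratios rests on 8 control counts in all. Over both arms, 129 counts stood against 8, a ratio of 16.4 (8.09 to 38.8). With 5 CPM added to both values the ratios became 2.93 for the 5p arm and 2.18 for the 3p arm.

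Other haematopoietic microRNAs were at or near 0, or lower in shELOVL5. Of 10 listed, 5 had 0 counts in both libraries, namely hsa-miR-223-3p and hsa-miR-223-5p of myeloid cells, hsa-miR-150-3p of lymphocytes, and hsa-miR-144-3p and hsa-miR-144-5p of red cells. hsa-miR-150-5p had 1 count in shELOVL5 and 0 in shLuc, and hsa-miR-451a, of red cells, had 6 and 2, a ratio of 3.05 (0.546 to 30.9). These 7 were named after their values were seen. A count of 0 shared rank 1247 of 2656 in shELOVL5 and rank 1191 in shLuc. Most microRNAs thus had 0 counts in each library, so 5 of 10 at 0 carries no weight. The 3 with at least 20 counts over both libraries had ratios below 1, with hsa-miR-486-5p at 0.784 (0.740 to 0.829), hsa-miR-342-3p at 0.595 (0.488 to 0.723) and hsa-miR-342-5p at 0.679 (0.241 to 1.81). None of these 3 differed by 2-fold, which is close to the share of all microRNAs and carries no weight. Of the 562 microRNAs at this limit, 4.98% were at least 2-fold higher and 2.67% at least 2-fold lower. The summed level of the list was 337 CPM in shELOVL5 and 440 CPM in shLuc. Without the abundant hsa-miR-486-5p 181 counts were left in shELOVL5 and 298 in shLuc, at a ratio of 0.618 (0.511 to 0.746), and of these hsa-miR-342-3p gave 166 and 284. The remaining 8 microRNAs had 15 and 14 counts, a ratio of 1.09 (0.491 to 2.44).

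miR-147b was also higher in shELOVL5, on 1 of its arms. hsa-miR-147b-3p had 143 counts in shELOVL5 and 64 in shLuc, a level of 20.7 CPM (17.5 to 24.4) against 9.12 (7.02 to 11.6) and a ratio of 2.27 (1.68 to 3.10). The other arm, hsa-miR-147b-5p, which is no member, had 13 and 14 counts and a ratio of 0.945 (0.409 to 2.17). Of the hairpin's counts, the 3p arm took 91.7% (86.2 to 95.5%) in shELOVL5 and 82.1% (71.7 to 89.8%) in shLuc. The 3p to 5p ratio was 2.41 times as high in shELOVL5 (exact conditional interval 0.982 to 5.89). The interval includes 1, so the arms were not told apart at this depth.

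Arm balance needs no scaling between libraries and was read for the other hairpins as well. The 3p arm took 2.01% (1.51 to 2.62%) of miR-146b counts in shELOVL5 and 1.69% (1.12 to 2.45%) in shLuc, a change in the 3p to 5p ratio of 1.20-fold (0.735 to 1.99). For miR-142 the 3p share was 34.9% (26.7 to 43.8%) in shELOVL5 and 25.0% (3.19 to 65.1%) in shLuc, a change of 1.61-fold (0.272 to 16.9). For miR-146a it was 0.0229% (0.00839 to 0.0498%) and 0.0138% (0.00167 to 0.0497%). All 4 hairpins had the higher 3p share in shELOVL5, each with an interval of the change that includes 1. Over the 155 hairpins with at least 20 counts on each arm and no arm at 0 in a library, the median log2 change of the 3p to 5p ratio was 0, and it was at least 2-fold in either direction in 8 (5.16%). The 155 include miR-146b, miR-142 and miR-147b, and miR-147b is itself 1 of the 8. The 4 hairpins show 3 kinds of arm use, with almost all counts on the 5p arm for miR-146, most on the 3p arm for miR-147b, and both arms in use for miR-142.

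**Figure D2:**
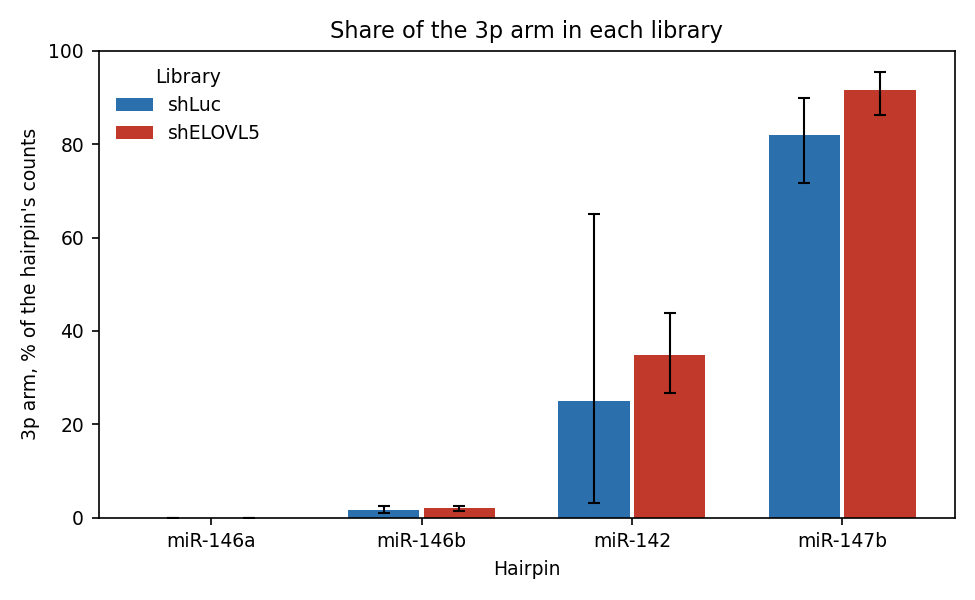
Share of each hairpin's counts on its 3p arm (percent, bars from 0) in the shLuc (blue) and shELOVL5 (red) libraries, with exact binomial 95% intervals for counting error; miR-155, with 2 counts per library, is not drawn. miR-146a and miR-146b stay under 3% in the 2 libraries, miR-142 stands at 25.0% and 34.9%, and miR-147b at 82.1% and 91.7%.

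The order of levels within the set can be read because mature microRNAs have nearly the same length, 21 to 24 bases here, though adapter ligation is known to favour some sequences. In shELOVL5 it ran from hsa-miR-146a-5p through hsa-miR-146b-5p to hsa-miR-147b-3p, hsa-miR-142-5p, hsa-miR-146b-3p, hsa-miR-142-3p, hsa-miR-146a-3p, hsa-miR-155-5p. The Poisson intervals of the first 4 did not overlap. Those of hsa-miR-142-5p, hsa-miR-146b-3p and hsa-miR-142-3p overlapped from each to the next, as did those of hsa-miR-146a-3p and hsa-miR-155-5p. In shLuc the first 3 were the same, also without overlap, and hsa-miR-146b-3p at 3.85 CPM came ahead of hsa-miR-142-5p at 0.855. hsa-miR-142-3p, hsa-miR-146a-3p and hsa-miR-155-5p all had 2 counts there.

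Set against all microRNAs, 6 of the 9 members had at least 20 counts over both libraries, and the other 3 were hsa-miR-146a-3p and both miR-155 arms. Of the 6, 3 were at least 2-fold higher in shELOVL5 (both miR-142 arms and hsa-miR-147b-3p) and 0 were at least 2-fold lower, where 4.98% of the 562 microRNAs that met this limit were that much higher and 2.67% that much lower. Both miR-142 arms reached 20 counts through shELOVL5 alone and could not have done so without differing, and the set was chosen on this contrast, so the count carries no weight of its own. Ratios spread more at low counts. Of the 271 microRNAs with 20 or more but under 200 counts, 8.49% were at least 2-fold and 1.11% at least 10-fold higher. This is the range of the miR-142 arms and hsa-miR-146b-3p. Both miR-142 arms are counted in these shares and are among the 3 microRNAs behind the 1.11%. That share is therefore no outside background for them. Of the 291 with 200 or more counts, 1.72% were at least 2-fold higher and 4.47% at least 1.5-fold higher, and this is the range of the miR-146 5p arms and, with 207 counts, hsa-miR-147b-3p. At 1.5-fold all 6 members were higher, where 14.1% of the 562 were, and 0 were lower, where 6.05% of the 562 were. A difference of 10-fold or more upwards, as in both miR-142 arms, was found in 4 of the 562 (0.712%), with a count of 0 set to 3. The median ratio over the 562 was 1.02.

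**Figure D3:**
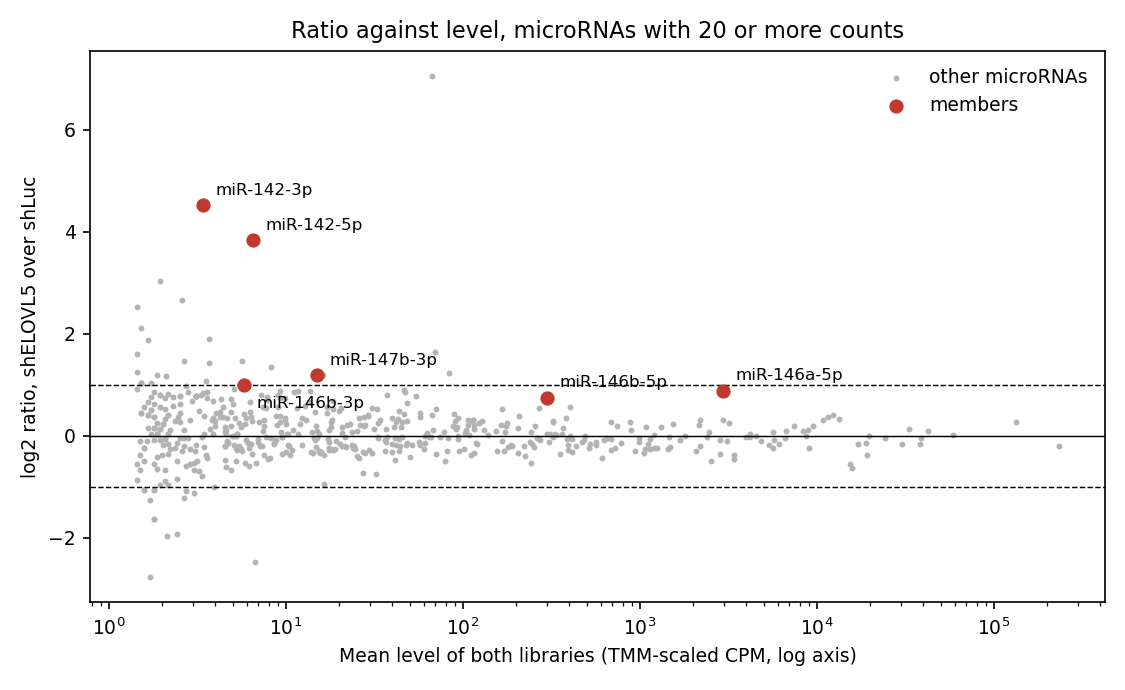
log2 ratio of shELOVL5 over shLuc against the mean level (TMM-scaled CPM, log axis) for the 560 microRNAs that had 20 or more counts in total and some in each library; members are red and named, and the dashed lines mark 2-fold differences. Scatter widens to the left, where counts are low; the miR-142 arms lie at 3.83 and 4.52, and hsa-miR-146a-5p lies at 0.88.

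The members were next set beside 20 other microRNAs linked to NF-kappaB or toll-like receptor signalling. Of these, 17 had at least 20 counts over both libraries, and 0 of the 17 were at least 2-fold or 1.5-fold higher. Of all 562 microRNAs at this limit, 4.98% were at least 2-fold and 14.1% at least 1.5-fold higher. For a list of 17, a count of 0 is close to those shares and carries no weight. Their ratios ran from 0.678 to 1.24 with a median of 0.966, beside 1.02 for all microRNAs. The intervals lay above 1 for 4, below 1 for 9 and included 1 for 4. At high counts they exclude 1 even for small differences, as for hsa-miR-221-3p below. The same split over the 562 was not counted, so this one carries no weight. The most abundant were hsa-miR-21-5p, known to promote tumour growth, at 1.21 (1.20 to 1.21), hsa-miR-221-3p at 0.973 (0.967 to 0.978) and hsa-miR-222-3p at 0.894 (0.889 to 0.898), repressors of the cell cycle inhibitor p27. Of the 17, none had a ratio in the range of the miR-146 pair. This follows from 0 being 1.5-fold higher and likewise carries no weight. The members were drawn up with their ratios in this contrast known, and the list holds only other microRNAs. The gap between them is thus a description and was not tested. The other 3, hsa-miR-203a-3p with 5 counts in shELOVL5 and 0 in shLuc, hsa-miR-187-3p with 2 and 0, and hsa-miR-223-3p with 0 in both, were too rare to read. hsa-miR-132-3p, induced by toll-like receptor signals in monocytes, stood at 0.906 (0.821 to 0.999), and hsa-miR-9-5p, a repressor of NFKB1, at 0.837 (0.752 to 0.931). hsa-miR-125b-5p, which lowers TNF, had the highest ratio at 1.24 (1.23 to 1.26), and hsa-miR-99b-5p the lowest at 0.678 (0.673 to 0.684). These last 4, and the 3 rare ones, were named after their values were seen.

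**Figure D4:**
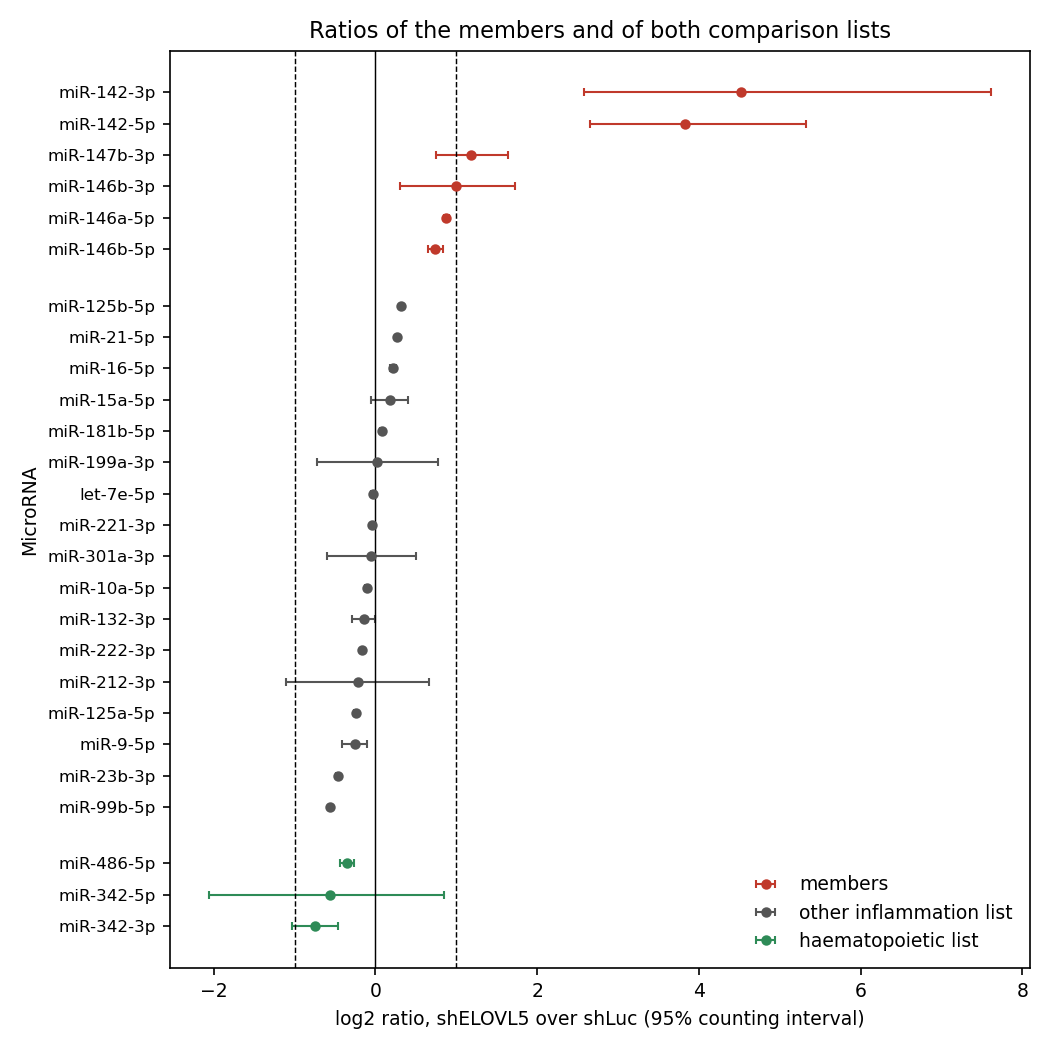
log2 ratio of shELOVL5 over shLuc with 95% counting intervals for the members (red), other inflammation microRNAs (grey) and other haematopoietic microRNAs (green) with at least 20 counts over both libraries; dashed lines mark 2-fold differences. The 6 members stand between 0.74 and 4.52, the 17 others of the inflammation list between -0.56 and 0.32, and the 3 haematopoietic ones below 0. Members were chosen with ratios of this contrast known, so the gap is a description.

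With 1 library a side, likeness to hsa-miR-146a-5p means only a close ratio. Among microRNAs with at least 200 counts outside the set, the nearest log2 ratios to its 0.88 were 0.89 for hsa-miR-1268a (415 and 228 counts), 0.85 for hsa-miR-1268b (418 and 236) and 0.79 for hsa-miR-129-5p (325 and 191). The first 18 bases of the miR-1268 sequences are identical, so those values may come largely from the same reads. All 3 were far rarer than hsa-miR-146a-5p, at 60.2, 60.6 and 47.1 CPM in shELOVL5.

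The start regions of the host genes were read for short motifs, as miR-146a and miR-155 are both textbook NF-kappaB targets. Whether these motifs bear on the counts was not tested. RefSeq gives MIR3142HG a start 17101 bases upstream of MIR146A, and MIR155HG one 11835 bases upstream of MIR155. The windows run from 250 bases before the start to 50 after it, on the plus strand of GRCh38.p14, with matches in capitals. The motifs searched on both strands were the NF-kappaB consensus and the AP-1 core TGANTCA, which did not overlap in any window shown.
MIR3142HG, chr5:160468001-160468300: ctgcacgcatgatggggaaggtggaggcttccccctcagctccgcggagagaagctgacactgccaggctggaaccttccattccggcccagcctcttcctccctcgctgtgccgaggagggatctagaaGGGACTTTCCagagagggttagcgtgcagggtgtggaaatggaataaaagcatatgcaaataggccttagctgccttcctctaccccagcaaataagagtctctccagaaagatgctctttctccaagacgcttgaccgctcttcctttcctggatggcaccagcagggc
MIR155HG, chr21:25561895-25562194: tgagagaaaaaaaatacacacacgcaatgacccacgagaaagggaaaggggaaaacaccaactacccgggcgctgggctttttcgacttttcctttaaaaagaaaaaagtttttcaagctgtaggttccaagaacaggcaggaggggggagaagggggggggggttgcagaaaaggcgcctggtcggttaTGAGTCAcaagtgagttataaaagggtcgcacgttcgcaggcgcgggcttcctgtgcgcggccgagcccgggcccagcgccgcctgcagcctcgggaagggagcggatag
The MIR3142HG window holds 1 NF-kappaB match, GGGACTTTCC at chr5:160468131-160468140, and the MIR155HG window 1 AP-1 match, TGAGTCA at chr21:25562085-25562091. The MIR3142HG window held no AP-1 match and the MIR155HG window no NF-kappaB match. The windows of MIR142HG, which RefSeq places over MIR142, and of COXFA4L3, the RefSeq name of C15orf48, held neither motif. In every case an absent match says only that these letters are not in that window. Of 35116 RefSeq windows of the same length, 5.91% held the NF-kappaB consensus and 7.71% the AP-1 core. A match is a description of the sequence, and no binding was measured here.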

How the data were processed

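Small RNA of MDA-MB-231 cells was sequenced in 2 libraries, shELOVL5 and shLuc, 1 per condition, made with a NEBNext kit and read single-end on an Illumina NextSeq, per the labels' protocols. The authors deposited unnormalized read counts, 1 line for each mature arm and hairpin. The submitters' processing notes name Bowtie 1.1.1, cutadapt 2.10 and FastQC 0.11.9. The counting program is not given in the sources used here, nor is the annotation. The labels' extraction text speaks of tumor material, whereas the other labels give the cell line.

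The highest precursor row was kept for each of 2656 mature microRNAs. Counts were scaled to CPM with TMM factors (edgeR 4.0.16, R 4.3.3), 1.01 for shELOVL5 and 0.988 for shLuc. Ratio intervals (95%) were converted from Clopper-Pearson limits on the shELOVL5 share of both counts (exact, scipy 1.17.1), and level intervals are Poisson. No test was possible with 1 library per condition. The background was every microRNA with 20 or more counts in total. Alternatives were total counts, DESeq2 1.42.0 size factors, other filters and fold rules, 5 CPM added, and summed precursor rows. The scripts were tested on simulated counts.

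Named microRNAs were the members, the other miR-147b arm, those sharing a seed or lying within 10 kb, the 3 most abundant of each list and at most 2 more that were 2-fold different, and the 3 nearest hsa-miR-146a-5p in ratio. Others are marked in the text as added or as named after their values were seen. The members and lists were chosen with earlier results of these data known.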

Additional observations from a re-analysis of the deposited data

How the results depend on the processing

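No paired analysis was possible because the groups hold a single library each, which also bars leaving one out. The 3 members at least 2-fold higher became 4 with total count scaling (hsa-miR-146b-3p at 2.05) and with at least 1 count in each library, and 2 with 5 CPM added or with the whole counting interval beyond 2-fold. They became 1 with at least 200 counts, 0 with a mean of at least 50 CPM and 100 counts, and 6 with a 1.5-fold rule. Members at least 2-fold lower numbered 0 in every alternative run. The share of all microRNAs at least 2-fold higher, 4.98%, became 0.890% with 5 CPM added, 1.57% with a mean of at least 50 CPM, 11.7% with at least 1 count in each library, 1.72% with at least 200 counts, 14.1% with a 1.5-fold rule and 1.60% with the whole interval. These follow from the construction of each alternative. The ratio of hsa-miR-146a-5p was 1.88 with total count scaling, outside its counting interval, as that scaling shifts every log2 ratio by 0.036. The DESeq2 size factors were 1 for both libraries, so that alternative gives ratios of unscaled counts. It shifts every log2 ratio by -0.026. Depth limits miR-155, miR-142 and the 3p arms.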

Other observations

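Of the 4 microRNAs with at least 20 counts that were 10-fold or more higher in shELOVL5, the others beside the miR-142 arms were hsa-miR-504-5p, with 917 and 7 counts, and hsa-miR-873-5p, with 33 and 0. They were named after their values were seen. At 10-fold or more lower there were 0 of 562.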
